A study of Rattus norvegicus with 15 samples.

Results

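Sham surgery at 24 h was compared with the intact state in a brain artery, the posterior cerebral artery, of rats of the Sprague Dawley stock aged 7 weeks. The comparison holds the 3 arrays with a 24 h sham source label and the 3 arrays with an intact control label, so 6 of the 15 Affymetrix Rat230A arrays of the series. The study also holds 3 arrays each of sham surgery after 3 d, of 3-vessel occlusion (3VO) after 24 h and of 3VO after 3 d. In 3VO the vertebral arteries on both sides and the common carotid artery on the left are closed, and sham surgery lays the same vessels bare and leaves them untouched. Per the labels, sham rats were anaesthetised with isoflurane, were given buprenorphine during and after the operation, and were anaesthetised again before the artery was taken. The labels name no surgery, anaesthesia or analgesia for the intact rats, which were taken at time 0. Surgery, anaesthesia and analgesia therefore cannot be told apart here. All groups shared perfusion with latex under papaverin, transfer of the brain to RNAlater and dissection of the artery from it. Arteries of 8 rats were pooled for each array. The series text speaks of repeated hybridisation of pooled RNA, so the p-values measure only the spread between these arrays, which may be technical.

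The posterior cerebral artery carries blood to the back of the brain along the leptomeninges. Its wall consists of endothelial cells, contractile smooth muscle, matrix-producing fibroblasts and resident macrophages, and it lies against brain tissue, meninges and, in places, choroid plexus. Surgical trauma is known to raise glucocorticoids, to induce acute-phase proteins and to recruit leukocytes to the wound. The artery's tone is set largely by nitric oxide from the endothelium, which raises cGMP in smooth muscle and relaxes it.

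The dissected pieces carried the defining markers of the labelled tissue. The smooth muscle actin Acta2 stood at 31346, 60379.7 and 52630.5 on the intact arrays and at 63346, 82069 and 84639 on the sham arrays, in replicate order. These values are Affymetrix signals on a linear scale, with a trimmed mean of 5000 on each array. The smooth muscle myosin heavy chain Myh11 stood at 43606 to 90622 on intact and at 82434 to 108337 on sham arrays. They also carried brain markers, and 2 intact arrays stood apart in these. Intact replicate 1 had the highest level of 36 neuron markers of all 15 arrays, and intact replicate 2 was rich in markers of choroid plexus, cilia and skeletal muscle. Sham replicate 3 at 3 d was as rich in choroid plexus markers, with a list level of 2.06 against 2.05. Intact replicate 2 also had a 3'/5' signal ratio of 3.10 for beta-actin and 1.59 for Gapdh, both the highest of the series. On the sham arrays at 24 h these ran from 1.68 to 1.97 and from 1.03 to 1.14. Intact replicates 1 and 3 stood at 2.07 and 2.05 for beta-actin, also above every sham array at 24 h. For Gapdh they stood at 1.05 and 1.23, and the groups overlapped. The beta-actin ratio and the group therefore cannot be told apart, and its part in the differences was not tested. Array numbers in the labels ran from 13 to 15 for intact and from 5 to 8 for sham arrays at 24 h, so the groups and the order of the arrays cannot be told apart, other than by a fit that takes the order as a straight line.

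Differences are of log2(signal + 16), sham minus intact, and overlap means that the ranges of the 3 arrays of each group overlap. No probe set passed a Benjamini-Hochberg adjusted p of 0.05 in limma's fit, 0 of 15737 tested (0%), and the smallest adjusted p was 0.116. At an unadjusted p under 0.05, 2364 probe sets stood apart, 1260 higher and 1104 lower after sham surgery, where 5% of those tested would be 787. With each of 10360 genes read from its brightest probe set, 53.9% of genes were higher in sham, with a median log2 difference of 0.0355. At an unadjusted p under 0.05, 8.39% of these genes were higher and 7.42% lower. All sham arrays lay above all intact arrays for 9.93% of genes, and below them for 7.87%. The count of 0 turned on single arrays. Without intact replicate 3, 818 probe sets passed, 427 higher and 391 lower, and without replicate 3 of 3VO at 3 d, which enters through the shared spread, 3 passed. All values below are therefore given as levels and differences of these arrays that did not pass the test, unless a sentence says otherwise.

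The 12 genes of smallest p that were higher after sham surgery, with a brighter group mean of at least 1000 and no overlap between arrays, held genes of the matrix, the endothelium, growth signalling and antigen presentation. St3gal1, a sialyltransferase of the Golgi, had signals of 2870.4, 2604 and 2326 on the intact and 6014, 5509 and 6811 on the sham arrays. Its log2 difference was 1.23 ± 0.19 (SE), or 2.34-fold, with an adjusted p of 0.116 in limma's test. Arsb, the lysosomal sulfatase that degrades dermatan and chondroitin sulfate, stood at 11101, 14051 and 13059 on intact and at 30871, 26884 and 32130.3 on sham arrays. In both genes the lowest sham array was far above the highest intact array. A second Arsb probe set was also higher, by 0.87 ± 0.20.

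Fgf7, a fibroblast-made growth factor that acts on epithelial cells, had the widest difference of the 12, with 111, 346 and 314 on intact and 1498, 1209.8 and 1102 on sham arrays, a log2 difference of 2.37 ± 0.45. It was dim on intact arrays and 5.15-fold higher on sham arrays, on the scale with the pseudocount of 16. Entpd1 (CD39), the vessel-wall enzyme that breaks down extracellular ATP and ADP, stood at 2159, 1148 and 3378 on intact and 5361, 5953 and 6924 on sham arrays. Icoslg, the ligand of a T-cell costimulatory receptor, was 3233 ± 643 (SD, n = 3) on intact and 7114 ± 1356 (SD, n = 3) on sham arrays. The endocytic adaptor Dab2 differed by 0.83 ± 0.16 and the early response gene Ier3 by 0.92 ± 0.18. The groups did not overlap in either gene.

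Epas1, which encodes the hypoxia-inducible factor HIF-2α of endothelial cells, stood at 3438, 3516 and 3802 on intact and 7567, 9725 and 7484 on sham arrays, a difference of 1.19 ± 0.22. Its other, brighter probe set differed by only 0.24 ± 0.16 with overlapping arrays. Tpm3, a tropomyosin of the cytoskeleton, differed by 0.94 ± 0.19 in the probe set that met the rule. Of its 10 other probe sets 9 had the same sign, and the last was lower, with -1.63 ± 0.48. The other 3 of the 12 were the collagen Col1a1 and the class I MHC genes RT1-S3 and RT1-CE10, described below. All 12 had an adjusted p of 0.116, and all 12 passed in the fit without intact replicate 3. The genes were chosen by their p on these same arrays, so their passing in that fit is no separate test.

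The 12 lower genes of smallest p were led by Jund, a member of the AP-1 transcription factors. Its probe set read 1833, 1388 and 2571 on intact arrays and 114, 165 and 111 on sham arrays, a log2 difference of -3.71 ± 0.59 or 13.1-fold lower, with an adjusted p of 0.116 in limma's test. Arrays of 2 other operated groups were low too, at 165, 503 and 176 after sham surgery for 3 d and at 531, 114 and 278 after 3VO for 24 h. After 3VO for 3 d the probe set read 442, 839 and 1414, and the last lay within the intact range. A second Jund probe set was dim on all 6 arrays (77 to 631 on intact, 136 to 332 on sham) and differed by -0.27 ± 0.77, so the difference rests on 1 probe set.

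Ywhah, the eta form of the 14-3-3 adaptor proteins, stood at 71576, 79874 and 61411 on intact and 37492, 42924 and 32212 on sham arrays. The chaperone Hsph1, of the Hsp110 family, was 15948 ± 1557 (SD, n = 3) on intact and 10332 ± 1076 (SD, n = 3) on sham arrays. Most of the rest are genes known from neurons. Serpini1 (neuroserpin), an inhibitor of tissue plasminogen activator made by neurons, read 9695, 9546 and 2829 on intact and 879.8, 1559 and 1084 on sham arrays. Mapt, which encodes tau, differed by -1.32 ± 0.28, the synaptic vesicle protein complexin 1 (Cplx1) by -1.92 ± 0.42 and the potassium channel Kcnc2 by -2.61 ± 0.54. Intact replicate 3 was the lowest intact array in each of these 4 genes, as it was in the neuron markers. In whole arteries, fewer cells of a type and less RNA per cell cannot be told apart.

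The remaining lower genes were Madd (-1.39 ± 0.29), the alpha-tubulin Tuba4a (-1.57 ± 0.34), the kinase Pak1 (-1.46 ± 0.32), the peroxisome assembly factor Pex6 (-2.59 ± 0.56) and Iqub (-3.07 ± 0.68). Iqub read 919, 2442 and 596 on intact and 26, 248 and 197 on sham arrays, so its sham level lay near the floor. Other probe sets of Kcnc2 were dim and split, with 2 of 5 lower. The 12 lower genes had adjusted p from 0.116 to 0.135, and all 12 passed in the fit without intact replicate 3. They too were chosen by their p on these arrays, so this is no separate test. None of the 24 genes changed sign in any of the alternative settings. Leaving out arrays could not turn a sign here, because the genes were chosen for arrays that do not overlap.

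**Figure D1:**
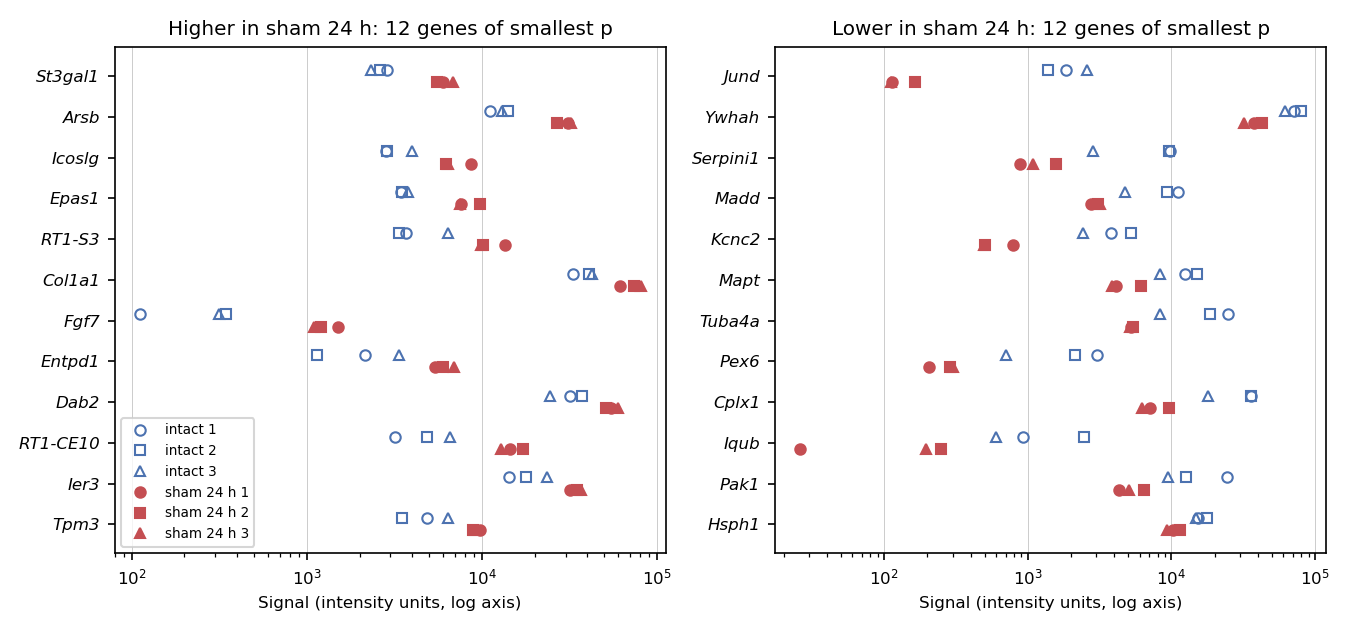
Signal of the 12 higher (left) and 12 lower (right) genes of smallest p on each array, in intensity units on a log axis, with open blue markers for the 3 intact arrays and filled red markers for the 3 sham arrays at 24 h. The groups do not overlap in any gene because the naming rule asks for this, and intact replicate 3 is the intact array nearest to sham in all lower genes except Jund.

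Genes of the extracellular matrix were higher on the sham arrays almost throughout. Of 55 measured members 52 were higher and 3 lower, with a median log2 difference of 0.53 against 0.0355 over all genes. None passed the adjusted test. 28 (50.9%) were higher and 1 (1.82%) lower at an unadjusted p under 0.05, against 8.39% and 7.42% of all genes. 24 (43.6%) lay higher without overlap between groups, against 9.93% of all genes. Col1a1, the alpha-1 chain of type I collagen, read 33128, 40678 and 42356 on intact and 61348, 74013 and 80352 on sham arrays, 1.86-fold. The difference was 0.89 ± 0.17 with an adjusted p of 0.116, and a second probe set gave 0.45 ± 0.15.

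Col3a1, the chain of type III collagen that accompanies type I in artery walls, stood at 38873, 40710.4 and 57376 on intact and 72327, 78437 and 78161 on sham arrays. The microfibrillar type VI collagen chains Col6a3 and Col6a2 differed by 0.65 ± 0.16 and 0.69 ± 0.18. Elastin (Eln), which gives the artery its recoil, read 3824, 6735 and 4716 on intact and 8534, 12178 and 10959 on sham arrays, a difference of 1.07 ± 0.32. In these 4 genes every sham array was above every intact array.

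Marker genes of leptomeningeal fibroblasts, which make much of the matrix around pial arteries, were higher alongside the matrix genes. 18 of 21 were higher, with a median of 0.59, and 10 (47.6%) did not overlap, against 9.93% of all genes. The lists share 4 genes, Col1a1 among them. Aldh1a1, a retinaldehyde dehydrogenase, stood at 6802, 6375 and 9244 on intact and 27664, 16828 and 19266 on sham arrays, and the related Aldh1a2 differed by 0.86 ± 0.23. The summed signal of this marker list ran from 1078856 to 1508683 on intact and from 1516701 to 1759474 on sham arrays. The part of the meningeal tissue in the matrix difference was not tested.

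Proteases and their inhibitors, which set the turnover of that matrix, had smaller differences. Of 28 metalloproteinases, ADAM proteases and cathepsins 19 were higher (median 0.15), and 4 (14.3%) did not overlap, near the 9.93% of all genes. The median was 0.055 without intact replicate 1 and 0.30 without intact replicate 3. The membrane collagenase Mmp14 read 15653, 16876 and 11274 on intact and 20865, 21196 and 25458 on sham arrays, and Adamts1 differed by 1.05 ± 0.31 with overlapping arrays. Of 21 protease inhibitors 18 were higher (median 0.37, or 0.25 without intact replicate 2 and 0.59 without intact replicate 3). Serpind1 (heparin cofactor II) stood at 1637, 2112 and 1629 on intact and 3389, 3235 and 3556 on sham arrays. Timp1, an inhibitor of metalloproteinases, read 13245, 8328 and 18022 on intact and 17936, 18183 and 16189 on sham arrays, and its difference of 0.47 ± 0.25 had an adjusted p of 0.403 with overlapping arrays. The broad inhibitor A2m differed by -0.062 ± 0.23, and the sign of that value changed in 2 alternative settings.

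Contractile genes of smooth muscle were mostly higher. 37 of 41 members were higher, with a median of 0.39, and 10 (24.4%) lay higher without overlap, against 9.93% of all genes. 11 (26.8%) were higher and 0 lower at an unadjusted p under 0.05, against 8.39% and 7.42% of all genes. Without intact replicate 1 the median was 0.16. There 4 members were higher and 1 lower at that p, against 580 and 535 of 10360 genes. Without intact replicate 3 the median was 0.62. The calponin Cnn2 read 6287, 8760.4 and 11592 on intact and 15668, 16325 and 14098 on sham arrays. Leiomodin 1 (Lmod1), which nucleates actin filaments in smooth muscle, differed by 0.97 ± 0.29, the smooth muscle integrin Itga8 by 0.89 ± 0.24 and Synpo2 by 0.81 ± 0.24. The classical markers had smaller differences. Acta2 differed by 0.71 ± 0.32 (adjusted p = 0.308) and Myh11 by 0.38 ± 0.27 (adjusted p = 0.532), and intact replicate 1 was the lowest of the 6 arrays in both. The Acta2 arrays did not overlap between groups, and those of Myh11 did. Without intact replicate 1 the differences were 0.43 for Acta2 and 0.034 for Myh11, and that of Myh11 was -0.06 with the neuron covariate. Pericyte markers, which share part of the mural programme, were higher in 13 of 14 members (median 0.41). Without intact replicate 1 they were higher in 8 of 14 (median 0.19), and with the neuron level of each array as a covariate also in 8 of 14.

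Receptors, channels and enzymes of vascular tone showed a smaller lean, 38 of 51 higher with a median of 0.20 (0.34 without sham replicate 1). Pde5a, the phosphodiesterase that degrades cGMP in smooth muscle, stood at 2272, 1797 and 2408 on intact and 4696, 4201 and 4815 on sham arrays, 2.12-fold with a difference of 1.09 ± 0.24. Nos3, the endothelial nitric oxide synthase upstream of that cGMP, read 1041, 1549 and 2612 on intact and 4819, 5327 and 4992 on sham arrays, 3.1-fold with 1.63 ± 0.46. Ramp2, a partner of the adrenomedullin receptor, differed by 0.65 ± 0.20. Rgs4, a brake on G-protein signalling that neurons also express, was lower by the fit (-0.65 ± 0.23) with overlapping arrays.

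Endothelial genes were higher in 35 of 40 members, with a median of 0.43. At an unadjusted p under 0.05, 17 (42.5%) were higher and 1 lower, and 13 (32.5%) lay higher without overlap, against 8.39% and 9.93% of all genes that were higher by these measures. The adhesion molecule Icam2 read 4282, 4808 and 5562 on intact and 7893, 8702 and 9358 on sham arrays. The receptor tyrosine kinase Tie1 stood at 2863, 3163 and 3835 on intact and 6738, 7458 and 6862 on sham arrays, and the receptor phosphatase Ptprb differed by 0.99 ± 0.27. Pecam1 (CD31), the general marker of the endothelium, read 1055, 1759 and 1506 on intact and 3973, 5885 and 2492 on sham arrays, a difference of 1.45 ± 0.40 with an adjusted p of 0.145. Every sham array was above every intact array in these 4 genes.

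All 38 measured genes of the interferon response and antigen presentation, each read from its brightest probe set, were higher on the sham arrays. Their median was 0.48. None passed the adjusted test, 17 (44.7%) had an unadjusted p under 0.05, and 15 (39.5%) did not overlap, against 8.39% and 9.93% of all genes that were higher by these measures. Irf9, the DNA-binding subunit of the complex that type I interferon activates, read 2802, 2804 and 3599 on intact and 4669.9, 4881 and 4743 on sham arrays. Tap1, a subunit of the transporter that loads peptides onto class I MHC, stood at 1314, 1009.8 and 1789 on intact and 3788, 3443 and 3230.3 on sham arrays, 2.59-fold. The transcription factor Irf1 differed by 0.56 ± 0.15. RT1-Bb counts as higher by its brightest probe set, while another of its probe sets was lower without overlap, as given below. With intact replicates 1 and 2 at list levels of -0.53 and -0.51, intact replicate 3 at -0.034 lay much nearer to the sham arrays, at 0.23, 0.099 and 0.20.

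Many of these genes are known to be switched on through the interferon-stimulated response element, whose core was searched as GAAANNGAAA on both strands (its reverse complement reads TTTCNNTTTC) in the RefSeq promoter windows of build GRCr8. Each window holds 250 bases before and 50 after a gene's start. 33 of the 38 genes had a window, and 18 of these (54.5%) held the core, against 3.92% of all 33469 windows. The list was drawn up from known interferon targets, so this share describes the list and not the arrays. The 4 members of smallest p that hold the core, chosen after their values were seen, are shown so that the element can be read in place, in the direction of the gene, with the matches in capitals. They lie at chr20:4668494-4668793 (minus strand, Tap1), chr6:48788071-48788370 (minus strand, Rsad2), chr12:41330216-41330515 (plus strand, Oas1a) and chr2:234005477-234005776 (plus strand, Gbp2).
Tap1: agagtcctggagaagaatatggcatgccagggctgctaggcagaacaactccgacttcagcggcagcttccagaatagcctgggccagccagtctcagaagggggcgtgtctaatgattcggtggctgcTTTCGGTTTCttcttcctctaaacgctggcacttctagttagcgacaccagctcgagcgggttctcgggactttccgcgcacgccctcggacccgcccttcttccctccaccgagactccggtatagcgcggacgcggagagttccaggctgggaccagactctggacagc
Rsad2: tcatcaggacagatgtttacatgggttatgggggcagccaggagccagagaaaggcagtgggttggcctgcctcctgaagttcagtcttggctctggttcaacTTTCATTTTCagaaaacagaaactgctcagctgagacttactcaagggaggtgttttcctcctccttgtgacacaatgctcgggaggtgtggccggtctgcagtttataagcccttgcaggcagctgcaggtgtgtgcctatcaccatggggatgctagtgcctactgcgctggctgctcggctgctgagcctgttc
Oas1a: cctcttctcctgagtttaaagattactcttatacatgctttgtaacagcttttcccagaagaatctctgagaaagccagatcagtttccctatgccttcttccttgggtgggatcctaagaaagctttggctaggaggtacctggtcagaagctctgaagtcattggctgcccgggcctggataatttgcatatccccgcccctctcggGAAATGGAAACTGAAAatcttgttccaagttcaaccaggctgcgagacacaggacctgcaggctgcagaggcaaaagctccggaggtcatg
Gbp2: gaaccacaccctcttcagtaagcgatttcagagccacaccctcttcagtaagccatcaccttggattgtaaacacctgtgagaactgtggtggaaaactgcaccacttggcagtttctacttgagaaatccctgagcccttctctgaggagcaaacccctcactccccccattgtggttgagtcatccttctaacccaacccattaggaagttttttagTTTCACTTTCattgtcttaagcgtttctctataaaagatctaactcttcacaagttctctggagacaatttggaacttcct
The first match begins 121 bases before the start in Tap1, 147 in Rsad2, 41 in Oas1a and 31 in Gbp2, and Oas1a holds 2 overlapping matches. Rsad2 (viperin), which blocks viral replication, read 3349, 3563 and 3419 on intact and 4857, 6767 and 6093 on sham arrays. Oas1a, which makes the activator of RNase L, read 2131, 2088 and 3365 and 4601, 3364 and 5044, and its lowest sham array met the highest intact array. Gbp2, a GTPase of interferon-treated cells, differed by 0.67 ± 0.25. A match is a description of these letters and not a measured binding site.

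Probe sets of the rat MHC, the RT1 region, which encodes the proteins that present peptides to T cells, differed in both directions. This family was looked at after its values were seen. Of 29 probe sets of 18 RT1 genes, 10 lay higher without overlap and 4 lower without overlap, where 9.93% and 7.87% of all genes did. The class I gene RT1-CE10 read 3175, 4854 and 6528 on intact and 14521, 17198 and 12778 on sham arrays, 3.16-fold. RT1-CE16 read 1474, 2729.5 and 2849 on intact and 10335, 10261 and 6302 on sham arrays. The probe set of RT1-S3 that met the naming rule read 3703, 3381 and 6399.6 and 13556, 10074 and 9921, and its 3 other probe sets were also higher.

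RT1-N2, a nonclassical class I gene, was lower, with 1023, 633 and 709.8 on intact and 102, 74 and 163 on sham arrays, a difference of -2.67 ± 0.71. The probe set of RT1-A was also lower without overlap, with -0.76 ± 0.38. The class II beta chain RT1-Bb had 2 probe sets that disagreed. One read 3583, 7124 and 11085 on intact and 23882, 19297 and 21812 on sham arrays. The other read 3984, 2802 and 4538 on intact and 728, 405 and 1065 on sham arrays. Neither pair of groups overlapped, so probe sets of the same gene differed by 1.71 ± 0.48 and by -2.42 ± 0.98. Its partner RT1-Ba showed 0.21 ± 0.45 and -1.34 ± 0.41. RT1 genes are near-identical copies, so which copy a probe set reads is uncertain, and these values belong to probe sets rather than to single RT1 genes.

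**Figure D2:**
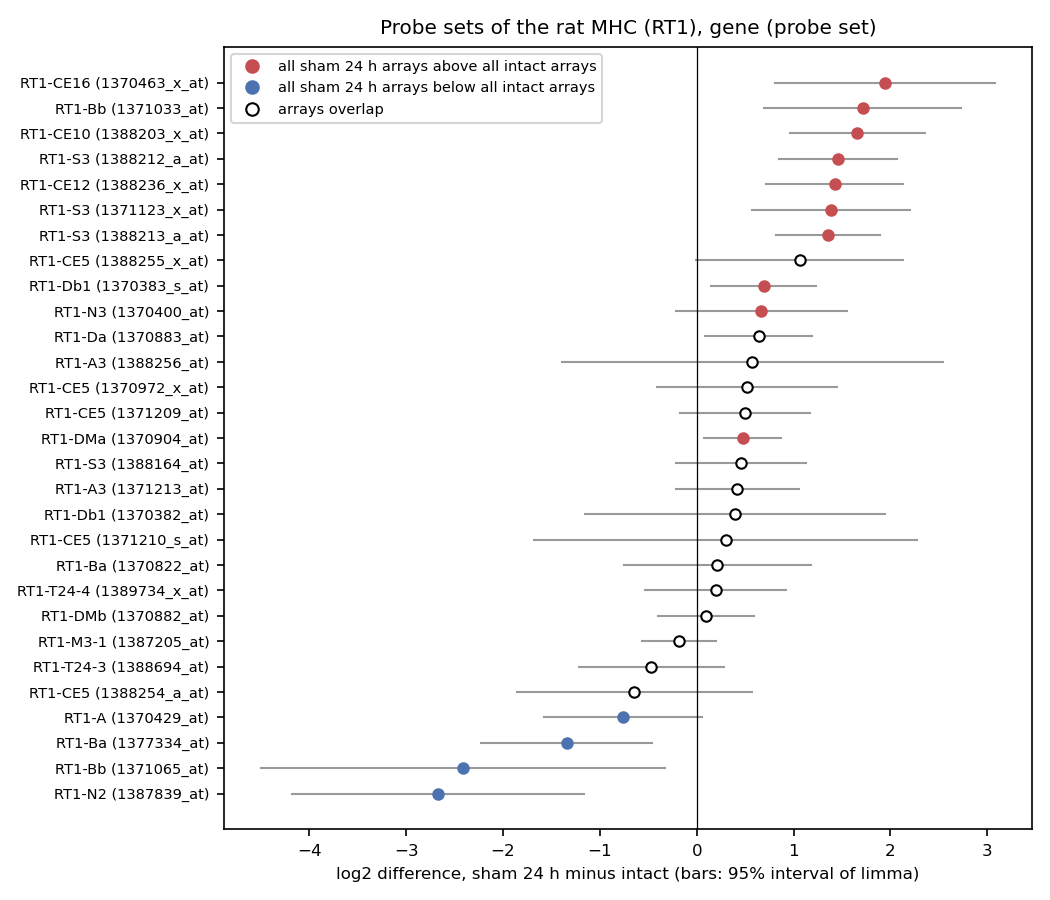
Log2 difference of sham at 24 h minus intact for each of 29 probe sets of the RT1 region, with bars for limma's 95% interval. Red points are probe sets with all sham arrays above all intact arrays (10), blue points those with all sham arrays below (4), and open points those that overlap, and RT1-Bb has a probe set of each colour.

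Adhesion molecules, chemokines and cytokines were higher in 37 of 44 members (median 0.31), and 11 (25%) lay higher without overlap, against 9.93% of all genes. The median was 0.48 without intact replicate 3. Vcam1, through which leukocytes bind activated endothelium, read 11123, 12133 and 14009 on intact and 18449, 19097 and 19054 on sham arrays. The cytokine Tgfb1 stood at 2238, 3381 and 3793 on intact and 6031, 4988 and 5719.8 on sham arrays, and the TNF receptor Tnfrsf1a differed by 0.45 ± 0.13. The hyaluronan-binding Tnfaip6, induced by cytokines, differed by 0.86 ± 0.27. Icam1, another ligand of leukocytes on inflamed vessels, differed by 0.17 ± 0.23 (adjusted p = 0.786) with overlapping arrays and a sign that turned in 3 alternative settings. The monocyte chemokine Ccl2 read 496, 286 and 502 on intact and 1389.7, 709 and 571 on sham arrays, a narrow gap with a difference of 0.97 ± 0.60 (adjusted p = 0.473).

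Markers of macrophages and neutrophils were higher alongside these genes, and those of lymphocytes split. 25 of 26 macrophage markers were higher, with a median of 0.46, though only 4 (15.4%) did not overlap, against 9.93% of all genes. Their summed signal ran from 193721 to 356172 on intact and from 290128 to 390003 on sham arrays, and no member was at 0. Tyrobp, a signalling adaptor of myeloid cells, read 4370.1, 4428 and 5718 on intact and 8035, 5953 and 7048 on sham arrays. The endotoxin co-receptor Cd14 differed by 0.84 ± 0.28 and Cd4, which rat macrophages carry as well as T cells, by 0.52 ± 0.19. All 11 neutrophil markers were higher (median 0.50). Only 1 (9.09%) had an unadjusted p under 0.05 in limma's test, near the 8.39% of all genes that were higher by this measure. 2 (18.2%) did not overlap, against 9.93% of all genes. The decoy receptor Il1r2, of this list, read 138, 118 and 614 on intact and 573, 901 and 1079.8 on sham arrays, which overlapped. The lymphocyte list had 10 of 15 higher (median 0.11, or -0.065 without intact replicate 2) and the platelet list 4 of 6 (median 0.41, or 0.15 without intact replicate 3). The platelet chemokine Pf4 differed by 1.13 ± 0.38 and P-selectin (Selp), of platelets and endothelium, by -1.24 ± 0.67 with overlapping arrays. Of the lymphocyte list, 2 (13.3%) lay higher and 1 (6.67%) lower without overlap, against 9.93% and 7.87% of all genes. In this list Cd8a differed by -1.33 ± 0.75, Cd2 by -1.03 ± 0.70, lower without overlap, and Gzmb by 1.29. Haemoglobin beta (Hbb) differed by 0.45 ± 0.22 with overlapping arrays, and 7 of 9 erythroid markers were higher (median 0.45, or 0.28 without sham replicate 2). The part of blood cells in the vessel-wall differences was not tested.

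The acute-phase list split, with 19 of 27 members higher and a median of 0.23, or 0.15 without intact replicate 1. Pla2g2a, a secreted phospholipase of inflammation, had the widest difference of the list. It read 182, 124 and 172 on intact and 2292, 2880.4 and 1519.7 on sham arrays, a log2 difference of 3.65 ± 0.93 with an adjusted p of 0.135 in limma's test. The arrays did not overlap, and the intact signals lay near the minimum of 100. Stat3, the transcription factor that carries the interleukin 6 signal, stood at 5438, 6027 and 3544 on intact and 8601, 9878 and 9615 on sham arrays, and the shared receptor chain Il6st differed by 0.41 ± 0.14. Serping1, the inhibitor of complement C1, differed by 0.86 ± 0.25. Lcn2, an iron-trapping protein of inflammation, read 1659.7, 1397 and 1597 on intact and 1954, 2572 and 1996 on sham arrays, without overlap, but its difference of 0.48 ± 0.38 had an adjusted p of 0.591. Complement C3 differed by -0.19 ± 0.21 with overlapping arrays.

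Kininogens, kinins and clotting proteases had 13 of 20 members higher (median 0.21, or 0.33 without intact replicate 3). Plat, the tissue plasminogen activator of endothelium, read 15942, 10436 and 18281 on intact and 25024, 21694 and 26681 on sham arrays, and its cell-surface docking protein Anxa2 differed by 0.84 ± 0.26. F13a1, the clot-stabilising transglutaminase that tissue macrophages also make, differed by 0.74 ± 0.20. Klk1, the tissue kallikrein that releases kinins, was lower, with 939.8, 1444 and 1065 on intact and 724, 319.9 and 416 on sham arrays. None of these 4 genes overlapped between groups, and none passed.

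Genes through which stress hormones are usually read showed no common direction. Of 31 glucocorticoid-responsive genes 18 were higher and 13 lower, with a median of 0.037 whose sign turned without intact replicate 2, next to 0.0355 over all genes. Fkbp5, which dampens the glucocorticoid receptor, read 6379.7, 5268 and 8197 on intact and 7571, 7262 and 7917 on sham arrays, a difference of 0.22 with a 95% interval of -0.24 to 0.67. Tsc22d3 (GILZ) differed by 0.20 with an interval of -0.27 to 0.66. The clock list was split at 9 of 18 higher. The clock output genes Dbp and Per2 differed by 0.28 ± 0.33 and 0.53 ± 0.40, and Per1 by -0.47 ± 0.62, all with overlapping arrays. The hour at which arteries were taken is not given in the labels.

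Immediate early and shear-responsive genes were higher in 27 of 40 members (median 0.23, or 0.14 without intact replicate 1). Ccn1, a matricellular protein induced by stretch and growth factors, read 551, 210.0 and 639 on intact and 1418, 2280.5 and 815 on sham arrays. The immediate early gene Fos read 1821, 2804 and 4155 on intact and 1144, 2037 and 682 on sham arrays, a difference of -1.23 ± 0.49 with overlapping arrays, and Egr1 differed by -0.18 ± 0.27. Fos and Egr1 are also activity genes of neurons. Growth factors and their receptors were higher in 32 of 43 members (median 0.33). Fgf1 stood at 1327, 1003 and 1765 on intact and 2695, 3253 and 4018 on sham arrays, and the TGF-beta co-receptor Tgfbr3 read 3726, 3293 and 2654 and 5786, 5999.8 and 7504. Cell cycle genes were higher in 29 of 43 members (median 0.25, or 0.11 without intact replicate 2 and 0.093 without sham replicate 3). At an unadjusted p under 0.05 in limma's test, 5 (11.6%) were higher and 2 (4.65%) lower, against 8.39% and 7.42% of all genes. Mki67, the marker of dividing cells, was dim, with 264, 105 and 127 on intact and 559, 289.9 and 791 on sham arrays. Ccnd3 differed by 0.36, whereas Stmn1 differed by -0.97 and Ccne1 by -1.18.

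40 of 49 genes of the respiratory chain were lower, by a small median of -0.14, and 11 (22.4%) lay lower without overlap, against 7.87% of all genes. The complex I subunit Ndufs6 read 28983, 28608 and 29700.5 on intact and 20650.3, 20866 and 21287 on sham arrays. Its difference was -0.47 ± 0.12. Hypoxia and glycolysis genes were lower in 22 of 39 members (median -0.06). Of these 39, 9 (23.1%) lay lower and 1 (2.56%) higher without overlap, against 7.87% and 9.93% of all genes. Genes of fasting and lipid use were higher in 25 of 35 members (median 0.21, or 0.14 without sham replicate 3). The glycolytic genes of smallest p were the muscle phosphofructokinase Pfkm (-0.67 ± 0.17), Aldoc (-1.42 ± 0.40), Eno2 (-0.81 ± 0.24) and Pgam1 (-0.44 ± 0.13). Aldoc is known from astrocytes and Eno2 from neurons, and both were highest on intact replicate 1. Acadm, the medium-chain enzyme of mitochondrial fatty acid oxidation, read 15939.8, 18346 and 21312 on intact and 25249, 26261 and 26620.5 on sham arrays, without overlap. Genes of cholesterol synthesis were lower in 19 of 26 members (median -0.099, or -0.18 without sham replicate 2).

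Chaperones and the unfolded protein response split, with 15 of 41 higher and 26 lower (median -0.037). Hspb1 (Hsp27), which protects actin filaments and is abundant in smooth muscle, read 10789.9, 11718 and 18897 on intact and 26665, 20027 and 19599 on sham arrays. The mitochondrial chaperone Hspa9 read 14364, 13685 and 14918 and 10936, 7628 and 8082, so it stood lower on sham arrays without overlap, as the cytosolic Hsph1 did.

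Markers of neurons and, with smaller medians, of glia were lower on the sham arrays. 35 of 36 neuron markers were lower, with a median of -1.11, and 16 (44.4%) lay lower without overlap, against 7.87% of all genes. The synaptic protein Snap25 read 124806, 69581 and 37834 on intact and 17534, 26282 and 16616 on sham arrays, a difference of -1.81 ± 0.43 with an adjusted p of 0.135. The stathmins Stmn2 and Stmn3 differed by -2.30 ± 0.55 and -1.84 ± 0.46, and parvalbumin (Pvalb), of fast-firing interneurons and muscle, was 56371, 3338 and 8462 on intact and 1128, 1614 and 1269.7 on sham arrays. The summed signal of the neuron list ran from 295235 to 798496 on intact and from 174991 to 294649 on sham arrays, and no member was at 0.

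Glia differed less by their medians. 14 of 20 astrocyte markers were lower (median -0.41), and their summed signal ran from 909393 to 969664 on intact and from 824227 to 870211 on sham arrays. 9 (45%) lay lower and 2 (10%) higher without overlap, against 7.87% and 9.93% of all genes. Gfap differed by -0.39 ± 0.23 with an adjusted p of 0.464 in limma's test. Oligodendrocyte markers had 11 of 16 lower (median -0.26, or -0.021 without sham replicate 3). 5 (31.2%) lay lower and 1 (6.25%) higher without overlap, against the same shares of all genes. Myelin basic protein (Mbp) differed by -0.27 ± 0.33. The lists of peripheral nerve and of pituitary and hypothalamus had no settled direction when single arrays were left out, with medians of -0.057 and 0.058. Choroid plexus markers had a median of -0.94, which was -0.10 without intact replicate 2 and -1.67 without intact replicate 1. Transthyretin (Ttr), the main choroid plexus secretion, read 22892, 282179 and 189034 on intact and 45159, 25556 and 121986 on sham arrays, and the plexus transcription factor Otx2 read 535, 8559 and 597 and 19, 79 and 229. Markers of cilia and of skeletal muscle were also highest on intact replicate 2, with list medians of -0.75 and -0.44 for sham minus intact. Without that array these were -0.47 and -0.10, and without intact replicate 1 -1.21 and -0.66.

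**Figure D3:**
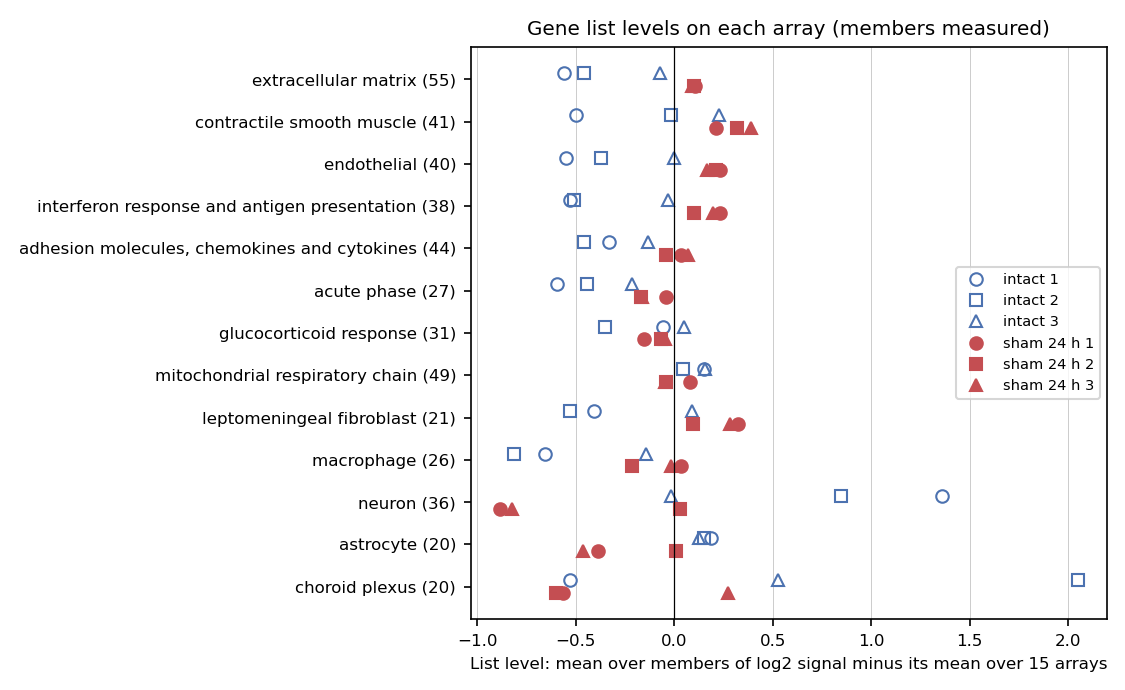
Level of 13 gene lists on each array, as the mean over members of the log2 signal minus that gene's mean over all 15 arrays, with open blue markers for intact and filled red markers for sham arrays at 24 h. Intact replicate 1 has a neuron level of 1.36 and intact replicate 2 a choroid plexus level of 2.05, and intact replicate 3 lies nearest to the sham arrays in the matrix, endothelial, interferon and neuron lists.

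Of the intact arrays, that with the highest neuron level had the lowest matrix level, and that with the lowest neuron level the highest. On intact arrays the neuron list stood at 1.36, 0.85 and -0.017 and the matrix list at -0.56, -0.46 and -0.073. On sham arrays the neuron list stood at -0.89, 0.03 and -0.82 and the matrix list at 0.10, 0.10 and 0.088. Intact replicate 3 and sham replicate 2 had neuron levels of -0.017 and 0.03, close to each other. Between these 2 arrays the matrix list differed between -0.073 and 0.10, the endothelial list between -0.002 and 0.21, the interferon list between -0.034 and 0.099, and the leptomeningeal list between 0.091 and 0.097. These are single arrays, with no replicate check.

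With the neuron level of each array as a covariate, a setting added after the values were seen, the smallest adjusted p went to 0.868 and 864 probe sets had an unadjusted p under 0.05, where 5% would be 787. The medians of the vessel-wall lists shrank. The matrix median went from 0.53 to 0.14, the contractile median from 0.39 to 0.035, the interferon median from 0.48 to 0.15, the leptomeningeal median from 0.59 to 0.15 and the macrophage median from 0.46 to 0.027. The endothelial median went from 0.43 to 0.32, with 32 of 40 members higher. With neuron and choroid plexus levels together, the endothelial median was 0.23 and the interferon median 0.015, while those of leptomeningeal and macrophage markers were -0.011 and -0.09. The neuron level itself differs between the groups, so such a fit takes out any difference that runs with it. The group and the neuron level cannot be told apart on these arrays.

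**Figure D4:**
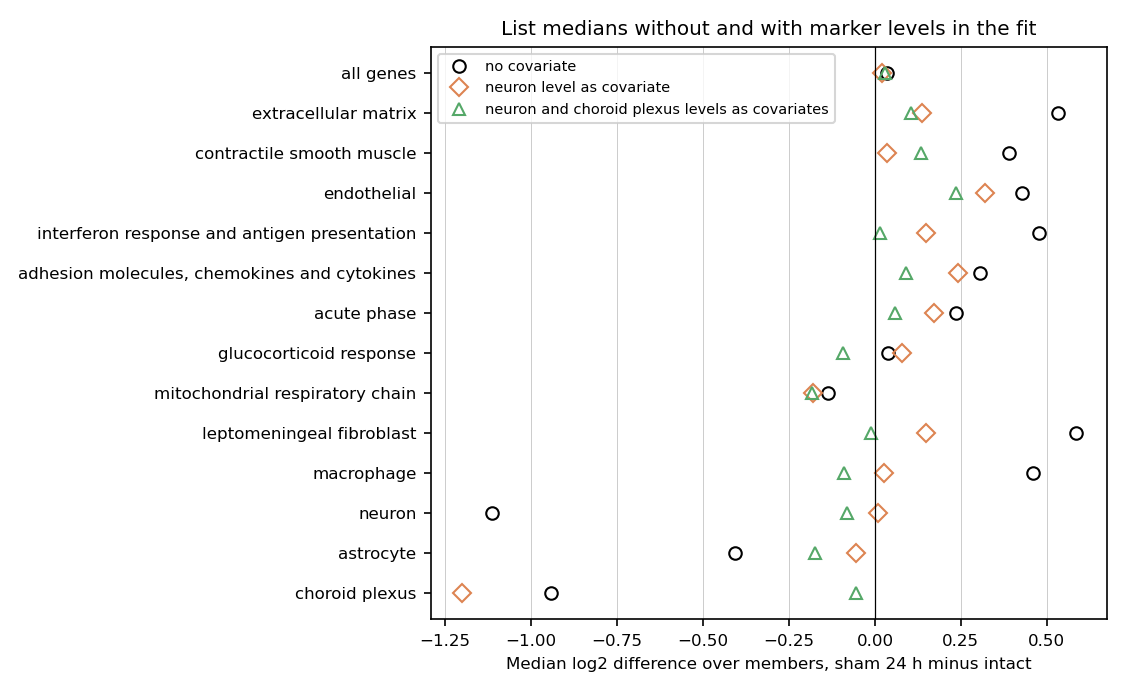
Median log2 difference of sham at 24 h minus intact over the members of each list and over all 10360 genes, from the fit without covariates (black circles), with the neuron level of each array (orange diamonds) and with the neuron and choroid plexus levels (green triangles). The endothelial median stays at 0.23 or above in all 3 fits, and those of the interferon, leptomeningeal and macrophage lists lie near 0 in the fit with both levels.

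Single genes are given without a covariate, with the neuron level, and with neuron and choroid plexus levels, in this order. St3gal1 differed by 1.23, 1.10 and 1.15, and Jund by -3.71, -3.19 and -3.33. Arsb differed by 1.24, 1.03 and 0.86, and Col1a1 by 0.89, 0.62 and 0.70. Tap1 differed by 1.37, 1.22 and 0.92, and Pla2g2a by 3.65, 2.28 and 1.25. Cplx1 differed by -1.92, -0.63 and -0.55, and Mapt by -1.32, -0.51 and -0.41. St3gal1 and Jund lost little of their difference in either fit, whereas Pla2g2a lost most of it in the fit with both levels, and Cplx1 and Mapt in both fits. None of these passed the adjusted test in either fit.

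The course after 24 h was read from the sham arrays at 3 d. No probe set passed between sham at 3 d and sham at 24 h, 0 of 15737 (0%), with 889 at an unadjusted p under 0.05 in limma's test. All 12 higher genes lay below their 24 h level at 3 d by the fit, and 2 of them had an unadjusted p under 0.05. St3gal1 read 3723, 4936 and 5060.0 on the sham arrays at 3 d, between the intact and the 24 h arrays, and Arsb read 24015, 22136 and 15016. Col1a1, at 67134, 63296 and 76278, and Epas1, at 6804, 8038 and 8371, stayed within or near the range of the 24 h arrays. Of the 12 lower genes 10 lay above their 24 h level by the fit. Iqub went to 456, 659 and 1538, with a log2 difference of 2.57 from 24 h. These genes were chosen for their 24 h values, so a step back toward intact describes them and is no test. One of the 3 d sham arrays carries a treatment text that describes occlusion, although its title, source and description say sham.

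Between 3VO and sham at 24 h, 8 of 15737 probe sets passed (0.0508%), all higher in 3VO. Against intact, 3VO at 24 h had 29 passing probe sets (0.184%), and RT1-CE10 and Tpm3 were among them, with adjusted p of 0.0215 and 0.0119 in limma's test. All operated groups share the intact arrays, so their differences from intact are set side by side only. The neuron list had a median of -1.11 for sham at 24 h, -1.10 for sham at 3 d and -0.41 for 3VO at 24 h. The matrix list had 0.53, 0.44 and 0.32, and the contractile list 0.39, 0.24 and -0.12. Timp1 differed from intact by 0.47, 0.39 and 3.02, Lcn2 by 0.48, 0.68 and 3.10, A2m by -0.062, 0.50 and 1.62 and Pla2g2a by 3.65, 2.72 and 2.47 in the same order of groups. The large values of Timp1 and Lcn2 stood on the 3VO arrays, and Pla2g2a was above its intact signals on all arrays of the 3 operated groups.

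**Figure D5:**
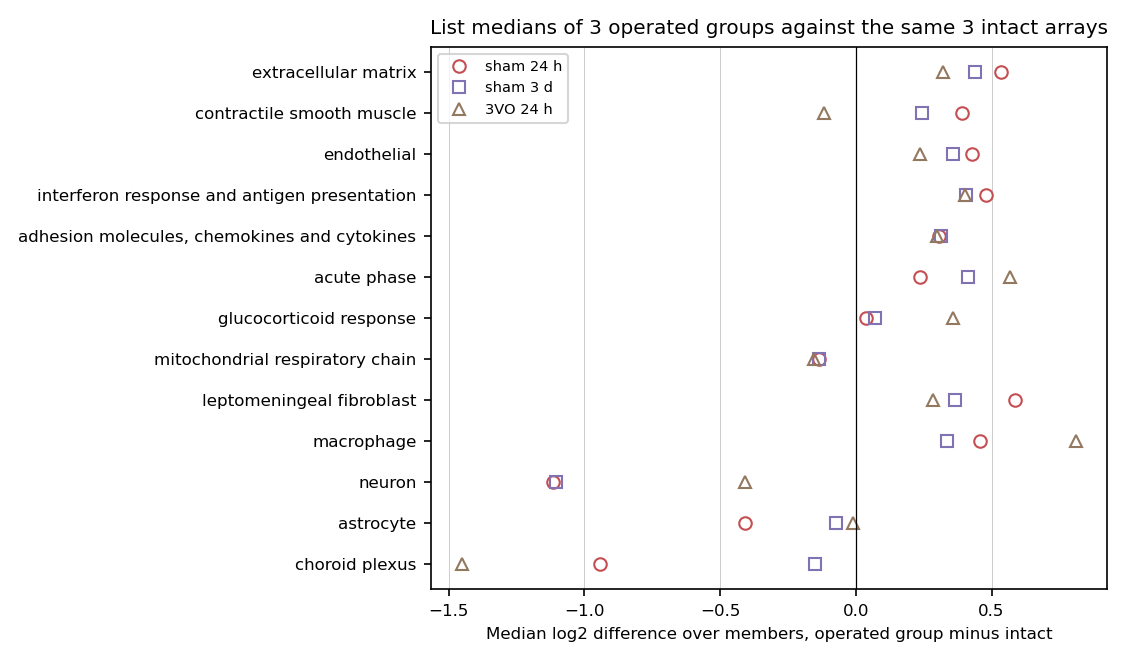
Median log2 difference from the same 3 intact arrays over the members of each list, for sham at 24 h (red circles), sham at 3 d (purple squares) and 3VO at 24 h (brown triangles). The sham groups lie close to each other in the neuron and matrix lists, and in the interferon list all 3 groups do (0.48, 0.41 and 0.40). The contractile list is above 0 for both sham groups and at -0.12 for 3VO.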

How the data were processed

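The values are array intensities that the authors deposited as a linear signal, made in GCOS per the submitters' processing notes and scaled to a global target (GCOS version: not given in the sources used here). A global target of 500 is named in the series text, yet all 15 arrays had a mean of 5000 once the outer 2% at either end was trimmed. Signals were taken as log2(signal + 16) with the authors' scaling kept. Testing took the 15737 of 15866 probe sets that reached a signal of 100 on any 3 arrays, and left out 57 control probe sets. The platform table, with RefSeq's current symbols, named them: 12783 probe sets had 1 gene, 312 several and 2771 none.

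limma 3.58.1 in R 4.3.3 fitted 5 group means to all 15 arrays, with a variance trend and 10 residual plus 4.83 prior degrees of freedom. Tests were 2-sided, with Benjamini-Hochberg adjustment over all probe sets of a contrast. The fit was tested on simulated data. Precision is limited by having 3 arrays in a group. Folds were taken from log2 differences, which understate those of dim genes.

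Named genes were, in each direction, the 12 of smallest p without overlap between arrays and with a brighter group mean of at least 1000, as none passed, then up to 4 members of each list by p, and a fixed set of 25 genes where measured. Lists, 22 of functions and 15 of cell markers, used the brightest probe set per gene. The comparison, members and lists were chosen with earlier results of these data known. Alternatives were other pseudocounts, filters, scalings and array weights, a fit without the variance trend, subsets of arrays, array number or marker levels as covariates, and leaving out each array.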

Additional observations from a re-analysis of the deposited data

How the results depend on the processing

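The count of 0 probe sets between sham at 24 h and intact also came from other pseudocounts, filters, scalings, array weights, no variance trend, only the brightest probe set of a gene, and array number or marker levels as covariates. It was 2 with the 6 arrays of the comparison alone and 1 without the 2 arrays richest in choroid plexus markers. Leaving out single arrays gave 0 to 818, with 818 without intact replicate 3, 3 without replicate 3 of 3VO at 3 d and 0 otherwise. Between sham at 3 d and at 24 h the count ran from 0 to 1 over single arrays left out, with 1 without sham replicate 2 at 3 d. For 3VO against sham at 24 h it was 8, against 2 without the variance trend, 25 with array weights, 16 with the neuron level as covariate, added after the data were seen, and 20 with neuron and choroid plexus levels. It ran from 1 to 13 over single arrays left out: 1 without 3VO replicate 2, 5, 2 and 2 without sham replicates 1, 2 and 3 at 24 h, and 13 without intact replicate 1.

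No list median changed sign under another scaling. Without the marker covariates, 6 of 37 list medians changed sign in some setting, those of the glucocorticoid, clock, chaperone, lymphocyte, pituitary and peripheral nerve lists, and 16 of 37 did with the covariates counted too. Of 175 named genes and list members 24 changed sign in some setting. No paired analysis was possible because the groups compared share fewer than 2 replicate numbers in the labels.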

Other observations

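Some groups outside the vessel-wall programme had values of their own. The ribosome and translation list was higher in 25 of 30 members (median 0.21, or 0.12 without intact replicate 2), and the ribosomal protein gene Rpl6 read 67426, 57670.2 and 79403 on intact and 108696, 92848 and 91899 on sham arrays. The median of the list was -0.075 with the neuron and choroid plexus levels in the fit. The antioxidant list split, with 21 of 36 higher (median 0.11, or 0.025 without sham replicate 3), and its regulator Nfe2l2 differed by 0.42 ± 0.14. None of these passed limma's adjusted test.

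Some genes known from other tissues were high on single arrays, whereas Myh1 and Scn7a stood higher on every sham array than on any intact array. The pituitary hormones growth hormone (Gh1) and prolactin (Prl) were highest on sham replicate 2, with 2360.5, 10118 and 2616 for Gh1 and 377, 3871 and 848 for Prl on the sham arrays, against 1382, 1928 and 1099.8 and 149, 618 and 139 on the intact arrays. The fast myosin heavy chain Myh1 read 35972, 20474 and 52238 on intact and 76099.9, 71736 and 79605 on sham arrays, while the other skeletal muscle markers Tnnc2 and Acta1 were highest on intact replicate 2. The sensory neuropeptide Calca read 225, 629 and 1705 on intact and 1848, 1671 and 1607 on sham arrays, and the atypical sodium channel Scn7a read 1589.7, 1719 and 2212 and 4620.0, 4474 and 4023, without overlap.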
